A study of Mus musculus with 2 samples.

Results

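The cytosolic ribosomal protein genes of the dissected mouse neurohypophysis (NH) were described across its cell types. Members were all genes in the deposited gene list whose symbol starts with *Rpl* or *Rps* followed by a digit, together with *Rplp0*, *Rplp1*, *Rplp2* and *Rpsa*, without the copies named -ps and without the S6 kinases. This gave 87 of 27998 genes, of which 53 are named for the large and 34 for the small subunit. *Rps19bp1* and *Rpl7l1* carry such a symbol but are not structural proteins of the mature ribosome, and they were kept because the choice was made by name. The tissue came from 3-month-old male C57BL/6 mice, and each of 2 pools held the NH of 5 untreated animals with some adjoining intermediate lobe (IL). Cells of each pool were captured in droplets in which every mRNA molecule receives a unique molecular identifier (UMI), so that the pools are replicates of one condition and single cells are not replicates. Within the limits of the study, 273 cells with 699676 UMIs were kept in pool 1 and 255 cells with 726706 UMIs in pool 2, and no barcode of a kept cell was shared by both pools. Cells were placed in the authors' 11 clusters, which were merged by name into 7 types, and for every type each detected marker of its list was higher there than in the other types.

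The cytosolic ribosome makes proteins from mRNA. Its small subunit holds the decoding centre and its large subunit the site where peptide bonds form, and each is built from ribosomal RNA and a set of small, basic proteins that are present mostly once per ribosome. Vertebrate mRNAs for these proteins begin with a run of pyrimidines at the cap, known as the 5′ terminal oligopyrimidine (TOP) motif, through which their translation is adjusted together by mTOR signalling. Pituicytes are the resident glia of the NH, and the IL cells beside them make melanotropins from *Pomc*.

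Ribosomal protein genes gave 205261 of the 1426382 UMIs of kept cells, or 14.4%. T-cell like cells stood far above the other types. Their members took 33.4% of UMIs in pool 1 and 33.9% in pool 2 (mean 33.6% ± 0.359, SD, n = 2). Macrophage/microglia followed with 16.6% and 19.9% (18.2% ± 2.28), and vascular endothelia had 19.5% and 14.6% (17.02% ± 3.48). Pituicytes had 11.4% and 14.7% (13.04% ± 2.38). Epithelial-like cells had 11.2% and 12.3% (11.8% ± 0.797), and IL cells 11.1% and 11.96% (11.5% ± 0.618). Vascular and leptomeningeal cells (VLMC) had the lowest share, with 8.26% and 10.6% (9.42% ± 1.64). Both T-cell like values lay above every other value, while the pool values of neighbouring types below them in this order overlapped, except for IL cells and VLMC, whose values did not. With 2 pools a type, no exact test between types can pass a threshold of 0.05, and the shares are given without one. The exact 95% interval of the T-cell like share ran from 33.0% to 33.8% in pool 1 and from 33.3% to 34.4% in pool 2, and covers counting error only. VLMC, vascular endothelia and epithelial-like cells rest on 11, 13 and 23 cells, which limits their precision. Single cells of the vascular endothelia had a median of 13.5%, and the highest, in pool 1, reached 33.6%.

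**Figure D1:**
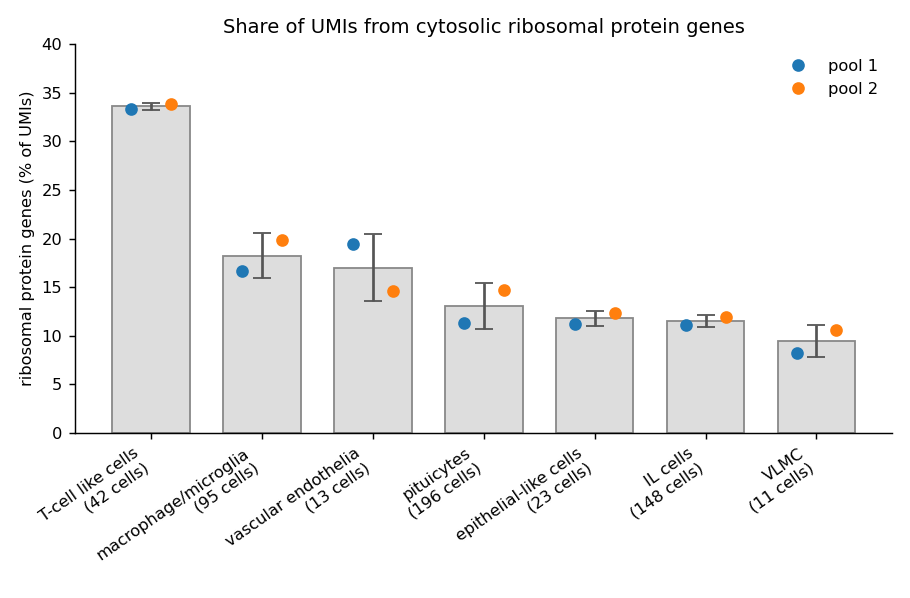
Percent of all UMIs that came from the 87 ribosomal protein genes (y axis) in each of the 7 cell types (x axis, with the number of cells); grey bars give the mean of the 2 pools, error bars the SD, and points the pools. T-cell like cells, at 33.4% and 33.9%, stand above the other 6 types, whose pool values lie between 8.26% and 19.9%.

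A high share need not mean more molecules per cell, because cells differ in their total. T-cell like cells held 705 and 616 UMIs of ribosomal protein genes per cell in pools 1 and 2, more than IL cells (390 and 439), macrophage/microglia (360 and 397) and pituicytes (248 and 424). This order holds for whole types and not for every cluster. The pituicyte cluster named c held 622 such UMIs per cell in pool 2, slightly above the T-cell like cells of that pool. In pool 1 that cluster held fewer than the T-cell like cells. Of all other genes, T-cell like cells held 1408 and 1202 UMIs per cell, fewer than IL cells (3126 and 3231), pituicytes (1934 and 2456) and macrophage/microglia (1803 and 1602). The captured count per cell depends on capture as well as on the cell's RNA, and these were not told apart. Genes of the mitochondrial genome gave 4.67% and 3.89% of UMIs in T-cell like cells, 5.62% and 6.48% in macrophage/microglia, 10.3% and 9.78% in IL cells, and 16.2% and 12.3% in pituicytes, while the mean share of ribosomal protein genes was higher in pituicytes than in IL cells. Counted over all UMIs but the mitochondrial ones, the share was 34.997% and 35.24% in T-cell like cells and 13.6% and 16.8% in pituicytes. T-cell like cells thus stayed above pituicytes. With cells limited to a mitochondrial share of 10%, the mean share of members in pituicytes was 19.1% ± 5.55 (SD, n = 2). That value rests on 11 cells of pool 1 and 38 of pool 2. It lay above the mean share of pituicytes without the limit. The 18.2% of macrophage/microglia was taken without the limit and lies within the SD of that value. The limit left 36 and 45 cells of macrophage/microglia in pools 1 and 2, but their share under it is not given here. These values therefore do not order both types under the same limit. The part of the mitochondrial share in the result was not tested. The large subunit gave between 52.8% and 59.3% of the members' UMIs in every type and pool.

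In single cells, the share in T-cell like cells had a median of 34.3% and ran from 16.1% to 50.2% over 42 cells. Of the 486 other cells, 113 reached the lowest T-cell like cell, and 3 reached the median T-cell like cell. All 42 T-cell like cells lay above the third quartile of the pituicytes, which was 14.9%. The pituicytes differed between pools, with a median of 6.98% in pool 1 and 13.8% in pool 2, and with cells between 0.954% and 42.1%. With 1000 UMIs drawn at random from each cell, the median number of members with a UMI in a cell was 73 of 87 in T-cell like cells, 62 in macrophage/microglia, and 51 in both pituicytes and IL cells. With all UMIs these medians were 78, 71, 66.5 and 75, at median depths of 1596, 1739, 2056 and 3249 UMIs per cell. Across the 42 T-cell like cells the share had a Spearman correlation of 0.215 with the UMIs of the cell and of -0.0983 with its mitochondrial share. The correlation with the mitochondrial share was -0.417 in IL cells and 0.143 in macrophage/microglia. In pituicytes it was -0.233 over both pools, but -0.116 in pool 1 and 0.0701 in pool 2. In epithelial-like cells, vascular endothelia and VLMC it was -0.612, 0.434 and 0.0273. These correlations share the total UMI count on both sides and are descriptions only.

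**Figure D2:**
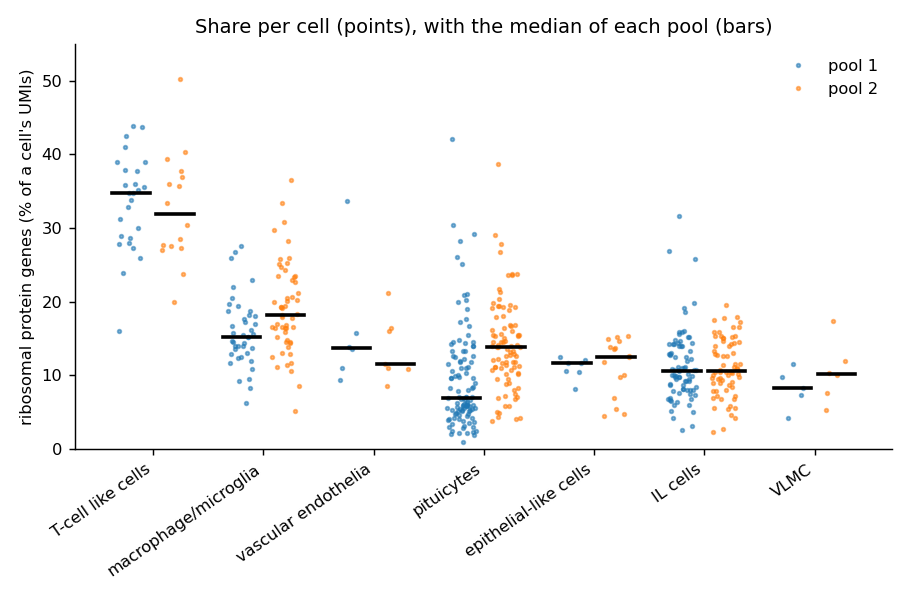
Percent of the UMIs of a cell that came from ribosomal protein genes (y axis) by cell type (x axis); each point is a cell, colored by pool, and black bars are the medians. The medians of T-cell like cells are 34.8% and 31.9%, and many pituicytes of pool 1 lie below the 13.8% median of the pituicytes of pool 2.

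The deposited cluster means, which are linear UMI counts per 10000 UMIs of a cell, list 86 members. Their sum was 3323 in the cluster of resident T cells and was highest there for 79 of the 86 members. It was 1784 and 1746 in both clusters of microglia and macrophages, 1486 in vascular endothelia, between 1157 and 1165 in the 3 clusters of pituicytes, 1182 and 1025 in both IL clusters (called neural progenitor in the deposited table), 1121 in the epithelial cluster and 949 in the cluster of VLMC. Within each pituicyte cluster pool 2 was higher, at 13.9% against 9.99% in cluster a, 16.1% against 9.39% in cluster b and 15.9% against 13.3% in cluster c. The second microglia cluster also had a wide gap, with 22.2% in pool 2 and 14.8% in pool 1.

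Members are among the most abundant mRNAs of this tissue. Of the 50 genes with most UMIs, 27 were ribosomal protein genes, and of the 87 members 79 had a UMI in more than 50% of kept cells and 23 in more than 90%. Levels are given as CPM, the UMIs of a gene over all UMIs of its type and pool, on a scale of 1000000. The libraries read the 3′ end of each mRNA and count 1 UMI per molecule, so that CPM was not divided by length. For members with copies elsewhere in the genome, the split of reads among the copies is uncertain. The CPM of such members, described further on, cannot be set side by side with that of other genes. *Rps29*, a small-subunit protein with a zinc finger, was the highest member, with 6787 CPM over all kept cells, followed by *Rpl41* with 5714 CPM, which codes for the shortest peptide of the ribosome, and by *Rpl39* with 4641 CPM, a protein that lines the exit tunnel of the large subunit. At the other end, *Rps19bp1* had 41.4 CPM and *Rpl7l1* 43.5 CPM. *Rpl10l*, a retrogene of *Rpl10* known from the testis, had 8 UMIs in 1.52% of cells, and *Rpl39l*, a copy of *Rpl39* also known from the testis, had 2 UMIs. *Rpl3l*, the form of *Rpl3* in striated muscle, had none, which allows a UMI in up to 0.568% of the 528 cells. So few UMIs cannot be told from free RNA. These 3 genes did not pass the filter on low counts, and the 84 other members did. In the deposited table, *Rpl3l* is the member that is not listed.

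To ask which members differed between types, counts were summed per type and pool, and each of the 4 large types was compared with the average of the remaining 3 by edgeR's quasi-likelihood test on 4157 genes, at a Benjamini-Hochberg adjusted p of 0.05 or less. The p-values measure only the spread between 2 pools. In T-cell like cells 76 of the 84 tested members were higher and none was lower, beside 11.9% of all tested genes that were called higher and 6.81% that were called lower. None was lower at an unadjusted p under 0.05 either, nor with DESeq2. The fitted value was below 0 for *Rpl7l1*, at -0.83 ± 1.05, and for *Rps27l*, at -0.27 ± 0.36 (log2 difference ± SE). The median log2 difference was 1.30 over the 84 members and -0.41 over all tested genes. For 72 of the 76 called members both T-cell like values lay above all 6 values of the other large types, or 94.7%, beside 69.98% of all genes called higher there. The authors' clusters rest on 900 variable genes that can include members, so cells were also clustered anew without any ribosomal protein gene. All 42 T-cell like cells were again named T-cell like. In that fit 77 members were called higher, among them the 76, beside 12.2% of all tested genes. With a limit of 10% on the mitochondrial share, which all 42 cells met, 62 of 82 tested members were. There 17.9% of the 1868 tested genes were called higher. The 5 T-cell markers in the files summed to 3131 and 3507 CPM in T-cell like cells and were at 0 in the other 3 large types, while B-cell markers were at 0 in T-cell like cells.

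*Rps24*, a protein of the small subunit, had the largest difference. It stood at 7228 and 7873 CPM in T-cell like cells, at 2628 and 3531 in macrophage/microglia, at 1307 and 1767 in pituicytes and at 1276 and 1339 in IL cells. The T-cell like values did not overlap with the others, and the log2 difference was 2.04 ± 0.19 (adjusted p = 5.03e-14). *Rps15a*, another protein of the small subunit, stood at 8284 and 9867 CPM in T-cell like cells, 2447 and 2734 in macrophage/microglia, 2156 and 3211 in pituicytes and 1465 and 1767 in IL cells (log2 difference 2.02 ± 0.18, adjusted p = 4.74e-14). *Rpl12*, which sits at the base of the stalk that recruits translation factors, had 2713 and 3369 CPM in T-cell like cells and between 611 and 1325 CPM in the other 3 types (1.92 ± 0.21, adjusted p = 5.66e-11). Each of these 3 genes kept its call under all 18 alternatives. The acidic proteins of that stalk rose as well, *Rplp0* by 1.62 ± 0.21, *Rplp1* by 1.18 ± 0.19 and *Rplp2* by 1.40 ± 0.23 on the log2 scale. *Rps6*, the substrate of the S6 kinases, rose by 1.40 ± 0.21. *Rpl5* and *Rpl11*, which with 5S RNA can bind the p53 regulator Mdm2, rose by 1.44 ± 0.24 and 1.21 ± 0.21. *Rpsa*, also known as the laminin receptor precursor, rose by 1.68 ± 0.22.

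The smallest called differences in T-cell like cells were those of *Rps29*, *Rpl31* and *Rpl26*. *Rps29* stood at 10687 and 11517 CPM in T-cell like cells and at 10917 and 13660 in macrophage/microglia, so that these overlapped, while pituicytes (5224 and 6478) and IL cells (5226 and 5298) were lower. Its log2 difference of 0.62 ± 0.18 (adjusted p = 0.00703) lost its call without the T-cell like sum of pool 1 or of pool 2, and so did those of *Rpl31* (0.64 ± 0.21) and *Rpl26* (0.67 ± 0.20). All 3 calls were also lost with the limit of 10% on the mitochondrial share, and that of *Rpl31* also with TMM normalization and without the macrophage/microglia of pool 1. *Rpl41*, the second most abundant member, did not pass the test in T-cell like cells (0.46 ± 0.19, adjusted p = 0.090), although its 7719 and 7494 CPM lay above the 3730 to 6896 CPM of the other large types. The 54928 and 29088 UMIs behind the T-cell like sums set the precision of these values.

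**Figure D3:**
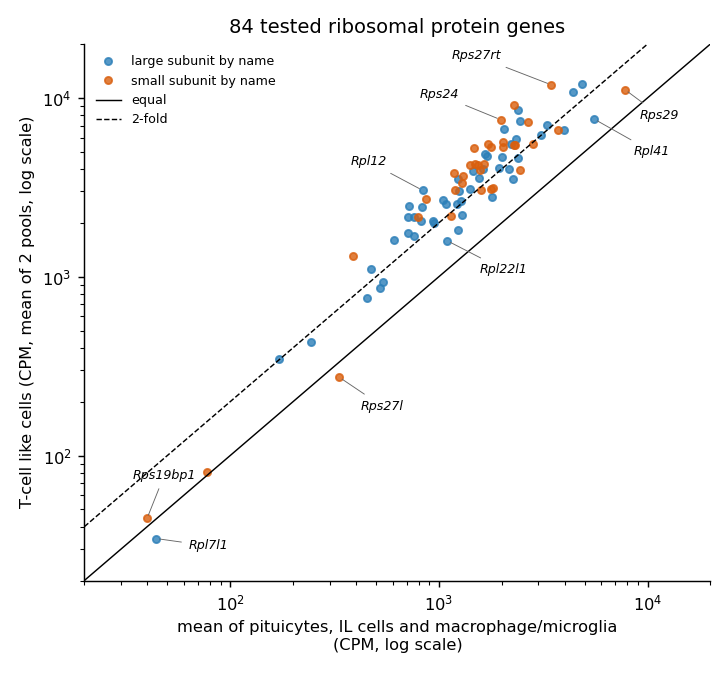
CPM of the 84 tested ribosomal protein genes in T-cell like cells (y axis, mean of 2 pools, log scale) against the mean of pituicytes, IL cells and macrophage/microglia (x axis, log scale), colored by the subunit in the symbol; the solid line marks equal levels and the dashed line a 2-fold difference. Most points lie near or above the dashed line, while only *Rps27l* and *Rpl7l1* lie below the solid one.

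The bases at the annotated starts of genes are shown for the members with the longest pyrimidine run and for the paralogs described further on. The TOP motif is a feature that these mRNAs are known to share. Its relation to the mRNA levels was not tested. The sequences are from RefSeq on GRCm38.p6, from 15 bases before to 15 bases from the start, 5′ to 3′ on the strand of the gene, with the longest run of C and T in capitals. Where a gene has several starts, the one with the longest run was taken.
*Rpl7a* (chr2:26910792-26910821, plus strand): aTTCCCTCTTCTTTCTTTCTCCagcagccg
*Rpl27a* (chr7:109519180-109519209, plus strand): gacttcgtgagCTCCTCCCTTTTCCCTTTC
*Rpl34* (chr3:130730323-130730352, minus strand): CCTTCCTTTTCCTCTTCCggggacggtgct
*Rpl35* (chr2:39005117-39005146, minus strand): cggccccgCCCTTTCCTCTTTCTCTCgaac
*Rpl22* (chr4:152324421-152324450, plus strand): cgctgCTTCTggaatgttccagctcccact
*Rpl22l1* (chr3:28805493-28805522, plus strand): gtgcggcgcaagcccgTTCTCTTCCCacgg
*Rps27* (chr3:90213634-90213663, minus strand): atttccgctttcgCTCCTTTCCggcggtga
*Rps27l* (chr9:66946071-66946100, plus strand): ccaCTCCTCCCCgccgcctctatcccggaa
*Rps27rt* (chr9:114982725-114982754, minus strand): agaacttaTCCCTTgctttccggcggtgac
A run of 8 or more C or T on the gene's own strand was present in 27 of the 66 members with an entry (40.9%), beside 13.9% of the 27025 genes of that table. Such a run is a description of these 30 bases, and the start that the cells use was not measured. The *Rpl22* window ends before position 152325742 on chromosome 4, where the GENCODE M21 annotation begins that gene. Its bases therefore cannot show whether *Rpl22* differs from *Rpl22l1* in this run. The members lie on 19 chromosomes, 14 of them on chromosome 7 and 4 on chromosome X, in the GENCODE M21 annotation of GRCm38. Their mRNAs are short. The median coding length was 453 bases in members and 1173 bases in all coding genes, and the median 3′ UTR was 82.5 against 645 bases.

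In pituicytes the members went the other way against this reference, which includes the T-cell like cells. Of the 84 tested, 46 were lower and none was higher, beside 7.99% of all genes called lower and 25.2% called higher. At an unadjusted p under 0.05, 1 member was higher (*Rps27l*), and with DESeq2 none was. The median log2 difference was -0.58 over members and 0.33 over all tested genes. *Rpl10a*, a protein of the L1 stalk, was lowest relative to the others (-1.26 ± 0.25, adjusted p = 2.94e-05). It had 403 and 588 CPM in pituicytes, 651 and 561 in IL cells, 1184 and 1529 in macrophage/microglia and 2294 and 1788 in T-cell like cells, so that pituicytes and IL cells overlapped. *Rpl3*, which reaches the peptidyl transferase centre, differed by -1.02 ± 0.24, and *Rpl13a* by -1.02 ± 0.20. For 3 of the 46 called members both pituicyte values lay below all others, or 6.52%, beside 25.9% of all genes called lower there. The count depended on the types and cells in the fit. With T-cell like cells left out of the fit, 1 of 84 members was called lower (*Rpl10a*), beside 6.06% of all genes. With a limit of 10% on the mitochondrial share none of 82 was, beside 3.48% of all genes. That limit left 11 of 108 pituicytes in pool 1 and 38 of 88 in pool 2. With all 7 types in the fit 6 of 82 members were called lower, beside 5.27% of all genes. Without the pituicytes of pool 1 the median log2 difference over members was -0.38.

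The pools of pituicytes differed for nearly all members. In pool 2, 82 of the 84 tested members were higher than in pool 1, with a median log2 difference of 0.34, beside 0.041 over all tested genes (with 100 CPM added to each). Among macrophage/microglia 74 members were higher in pool 2 (median 0.23), among IL cells 62 (0.11) and among T-cell like cells 42 (0.00030). Of the small types, VLMC had 57 members higher in pool 2 (0.32), epithelial-like cells 55 (0.17) and vascular endothelia 18 (-0.37). Of all tested genes, the share higher in pool 2 was 56.4% in pituicytes, 43.4% in macrophage/microglia, 53.3% in IL cells, 36.3% in T-cell like cells, 37.1% in VLMC, 51.0% in epithelial-like cells and 29.6% in vascular endothelia. *Rpl41*, with 3730 CPM in pool 1 and 6896 CPM in pool 2, showed the gap in pituicytes. The median mitochondrial share of kept cells was 11.04% in pool 1 and 8.96% in pool 2. A difference between pools has no replicate, and its relation to the mitochondrial share was not tested.

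In IL cells 67 of the 84 members were lower and 1 was higher, beside 13.4% and 20.8% of all tested genes. The median log2 difference was -0.80 over members and 0.18 over all tested genes. *Rpl39* had 2812 and 2693 CPM in IL cells and at least 4604 CPM in each sum of the other 3 types (-1.42 ± 0.20, adjusted p = 2.67e-08). *Rplp1* was lower too (-1.19 ± 0.21, adjusted p = 3.76e-06). Both kept their calls under 19 alternatives, and 22 of the 67 lower members had no overlap, or 32.8%, beside 39.4% of all genes called lower there. The member that was higher in IL cells was *Rpl22l1* (0.57 ± 0.21, adjusted p = 0.030), a call that was lost without the IL sum of pool 1 or of pool 2, without the macrophage/microglia of pool 2, without the T-cell like cells of pool 1, with no filter on low counts and with the 10% mitochondrial limit. With T-cell like cells left out, 20 members were lower, beside 13.5% of all genes. With all 7 types in the fit 25 were, beside 9.95%. Without the IL cells of pool 1 the median log2 difference over members was -0.76. *Pomc* and the other IL markers summed to 126600 and 96297 CPM in IL cells. Without *Pomc* in the total, the mean share of members in IL cells was 12.9% instead of 11.5%.

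Macrophage/microglia stood near the middle. Here 5 members were higher and 2 were lower, beside 17.4% and 6.01% of all tested genes, a share of members below that of all genes in both directions with this setting. With T-cell like cells left out 45 of 84 were higher, beside 17.6% of all genes, and with TMM normalization 19 were, beside 19.9%. The medians were 0.095 over members and -0.11 over all tested genes. *Rps29* was the member with the largest difference (0.81 ± 0.17, adjusted p = 0.000114), followed by *Rpl10a* (0.67 ± 0.23), and *Rps9* was also higher (0.56 ± 0.20). *Rpl22l1* was lower (-1.09 ± 0.25, adjusted p = 0.000343) and so was *Rpl38*, a protein with a known part in the translation of Hox mRNAs (-0.62 ± 0.20). The count of higher members depended on the setting. It was 9 with the pool as a replicate block, beside 17.2% of all genes, and 0 with the 10% mitochondrial limit, beside 23.4%. The median log2 difference over members was 0.17 without the pituicytes of pool 2 and 0.083 without the T-cell like cells of pool 2. It was 0.22 without the macrophage/microglia of pool 1 and -0.036 without those of pool 2.

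Since most members moved together, the fit was repeated with the summed UMIs of all members as the library size, which asks how a member moved within the set. A member that differs here took a larger or smaller part of the ribosomal protein mRNA of a type than in the other 3 types. Relative to that sum, 19 of 84 members were called in T-cell like cells, 13 in IL cells, 9 in pituicytes and 7 in macrophage/microglia. In this fit the share of all genes called higher and lower was 5.46% and 45.2% in T-cell like cells, 48.9% and 6.21% in IL cells, 45.2% and 3.68% in pituicytes, and 16.6% and 7.17% in macrophage/microglia, where the scale follows the members and not the other genes.

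**Figure D4:**
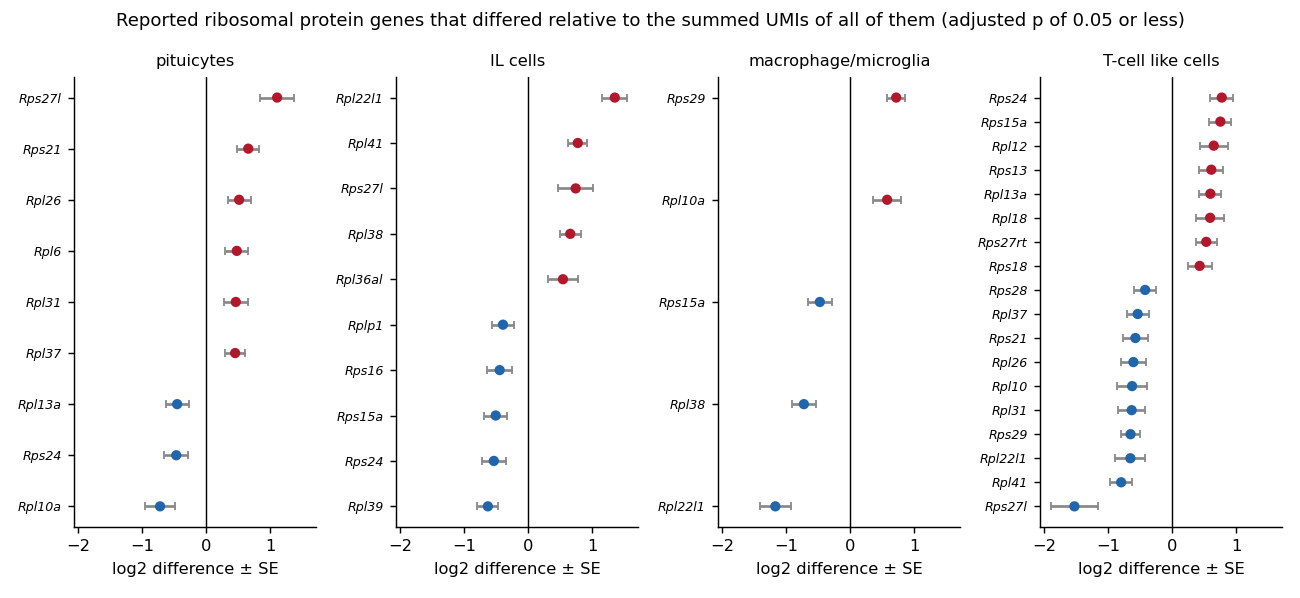
Log2 difference of the called ribosomal protein genes reported here, relative to the summed UMIs of all members (x axis, error bars are SE), in the 4 large types, each against the mean of the other 3; red points are higher and blue points lower. *Rpl22l1* has opposite signs in IL cells (1.36) and in macrophage/microglia (-1.17), and *Rps27l* in pituicytes (1.11) and in T-cell like cells (-1.52).

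In T-cell like cells 9 members took a larger part and 10 a smaller part. *Rps24* gave 2.17% and 2.32% of the members' UMIs in T-cell like cells and between 1.12% and 1.78% in the other large types, without overlap (0.78 ± 0.18, adjusted p = 0.000232). *Rps15a* (0.76 ± 0.17) and *Rpl12* (0.65 ± 0.21) came next, and *Rps13*, *Rpl13a*, *Rpl18*, *Rps27rt* and *Rps18* were also among the higher ones. *Rpl41* gave 2.31% and 2.21% in T-cell like cells and between 2.92% and 5.40% elsewhere (-0.79 ± 0.17, adjusted p = 7.29e-05). *Rps27l* was lowest relative to the sum (-1.52 ± 0.36), on 15 and 8 UMIs in the T-cell like sums. *Rps29*, *Rpl22l1*, *Rpl31*, *Rpl10*, *Rpl26*, *Rps21*, *Rpl37* and *Rps28* were the other lower members. *Rps24*, *Rps15a* and *Rpl41* kept their calls under all 14 alternatives. *Rps27l* kept its call under 13 of them, *Rpl26* and *Rps27rt* under 12, *Rpl12* and *Rpl10* under 11 and *Rpl22l1* under 10. With the pool as a block more members were called in both directions. Fewer were called in both directions without the T-cell like cells of pool 1 or of pool 2.

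In IL cells 6 members took a larger and 7 a smaller part. *Rpl22l1* led the first group, with 1.32% and 1.36% of the members' UMIs in IL cells, 0.893% and 0.791% in pituicytes, 0.434% and 0.294% in macrophage/microglia and 0.458% and 0.487% in T-cell like cells (1.36 ± 0.20, adjusted p = 4.66e-09). The IL values did not overlap with any other. *Rpl41* followed with 4.85% and 5.40% (0.78 ± 0.15, adjusted p = 7.61e-06), and *Rps27l* (0.74 ± 0.27), *Rpl38* (0.66 ± 0.17) and *Rpl36al* (0.55 ± 0.24) were also in the group. The second held *Rpl39* (-0.63 ± 0.16), *Rps24*, *Rps15a*, *Rps16* and *Rplp1*. *Rpl22l1* and *Rpl41* kept their calls under all 15 alternatives. *Rpl38* kept its call under 14 of them, *Rpl39* under 13, *Rps27l* under 12, *Rpl36al* under 7 and *Rplp1* under 3. With the pool as a block the counts were 13 and 11, beside 49.7% and 6.04% of all genes. Fewer members were called in both directions without the IL cells of pool 1 or of pool 2.

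In pituicytes 6 members took a larger and 3 a smaller part. *Rps27l*, a paralog of *Rps27* that is known as a target of p53, gave 0.355% and 0.292% of the members' UMIs in pituicytes and between 0.081% and 0.295% in the other large types, so that the ranges met only at the IL cells of pool 1 (1.11 ± 0.27, adjusted p = 0.000269). It kept its call under all 15 alternatives. *Rps21* gave 2.03% and 2.39% and did not overlap with the 1.07% to 1.95% of the others (0.66 ± 0.17), and *Rpl26* rose by 0.52 ± 0.18, while *Rpl6*, *Rpl31* and *Rpl37* were the other higher members. *Rpl10a* (-0.72 ± 0.23), *Rps24* (-0.47 ± 0.19) and *Rpl13a* (-0.45 ± 0.18) were lower. *Rpl10a* kept its call under 13 of 15 alternatives, *Rpl13a* under 10 and *Rps24* under 7, the last being lost without either sum of pituicytes or of T-cell like cells. With the pool as a block the counts were 12 and 10, beside 46.4% and 3.7% of all genes. Fewer members were called in both directions without the pituicytes of pool 1, and fewer lower ones without the T-cell like cells of pool 1. With cells clustered anew without members, 9 were higher and 9 were lower, beside 50% and 3.82% of all genes. In that clustering all 11 VLMC and 6 IL cells were named pituicytes, so that its pituicyte sums hold other cells as well. The part of these cells in the change was not tested.

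In macrophage/microglia *Rps29* (0.72 ± 0.14, adjusted p = 1.75e-05) and *Rpl10a* (0.58 ± 0.22) were among the 4 members that took a larger part, and *Rpl22l1* (-1.17 ± 0.24, adjusted p = 2.99e-05), *Rpl38* (-0.72 ± 0.18) and *Rps15a* (-0.47 ± 0.18) a smaller one. *Rps29* gave 6.57% and 6.88% of the members' UMIs in these cells and between 3.20% and 4.71% in the other large types, which did not overlap. *Rps29* and *Rpl22l1* kept their calls under all 15 alternatives, *Rpl38* under 14, and *Rpl10a* and *Rps15a* each under 7. With the pool as a block more members were called in both directions. Fewer higher members were called when 1 sum of T-cell like cells or macrophage/microglia was left out, or without the IL cells of pool 2. More lower ones were called without the pituicytes of pool 1, and fewer without the macrophage/microglia of pool 1.

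Several members have a close paralog, and the pairs differed in how their balance varied. *Rpl22l1* (chromosome 3, 28805436 to 28807424 on GRCm38) and *Rpl22* (chromosome 4, 152325742 to 152334071) code for alternative proteins of one position of the large subunit, and *Rpl22* is known to hold down *Rpl22l1* in mice. Their coding sequences are 68.2% identical over the aligned bases. *Rpl22l1* had 412 and 405 UMIs in IL cells beside 142 and 162 of *Rpl22*, a ratio of 2.90 and 2.50. In pituicytes the ratio was 1.90 and 1.79, in macrophage/microglia 0.703 and 0.496, and in T-cell like cells 0.689 and 0.787. Both IL values hence lay above those of pituicytes, and those of pituicytes above both immune types. Relative to the members' sum, *Rpl22* itself did not pass the test in IL cells (-0.17 ± 0.22) or in T-cell like cells (0.32 ± 0.23). *Rpl22l1* had 1465 and 1623 CPM in IL cells and, overlapping with these, 1529 and 1650 in T-cell like cells, and *Rpl22* had 505 and 649 against 2221 and 2097 CPM. At 1000 UMIs per cell, a UMI of *Rpl22l1* was found in 78.6% of T-cell like cells, 70.3% of IL cells, 56.1% of pituicytes and 40% of macrophage/microglia.

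**Figure D5:**
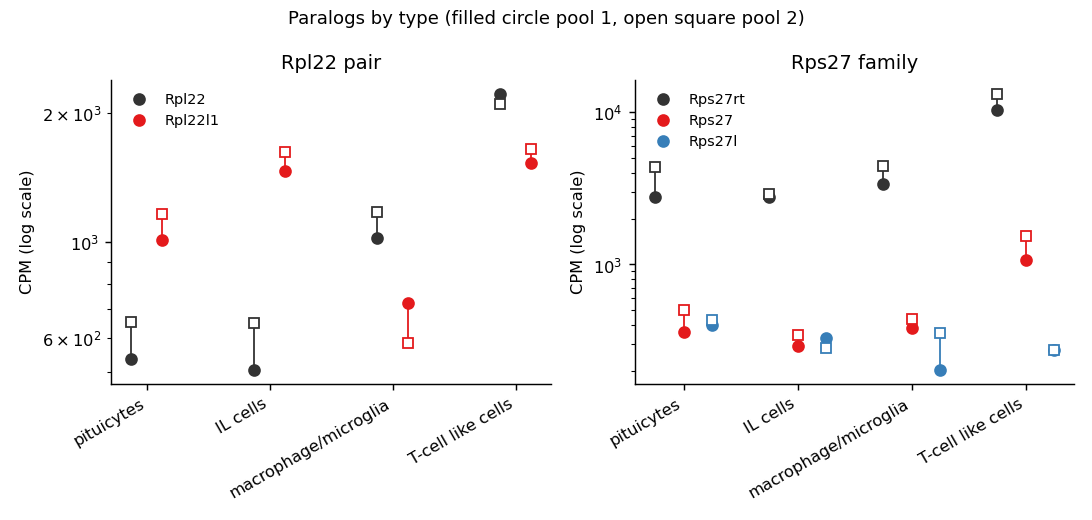
CPM (y axis, log scale) of *Rpl22* and *Rpl22l1* (left) and of *Rps27rt*, *Rps27* and *Rps27l* (right) in the 4 large types (x axis); filled circles are pool 1, open squares pool 2, and a line joins the pools. *Rpl22l1* lies above *Rpl22* in pituicytes and IL cells and below it in macrophage/microglia and T-cell like cells, and *Rps27l* stays between 203 and 430 CPM while *Rps27* and *Rps27rt* are highest in T-cell like cells.

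*Rps27rt*, an intronless copy on chromosome 9 (114982366 to 114982739), has a coding sequence identical to that of *Rps27* on chromosome 3 (90212522 to 90213651), so that the split of reads between both is uncertain. *Rps27rt* took 5487 UMIs and *Rps27* 627. The ratio of *Rps27* to *Rps27rt* lay between 0.098 and 0.131 in the 8 sums of the large types, and both were higher in T-cell like cells, with log2 differences of 1.79 ± 0.18 and 1.74 ± 0.26. *Rps27l* (chromosome 9, 66946086 to 66949516) is 76.2% identical to *Rps27* over its coding bases. It had 403 and 430 CPM in pituicytes, 327 and 285 in IL cells, 203 and 352 in macrophage/microglia and 273 and 275 in T-cell like cells. Both pituicyte values were above those of the other large types. On the scale of all UMIs the difference did not pass the test (0.54 ± 0.26, adjusted p = 0.10). In the deposited cluster means *Rps27l* was 3.92, 5.41 and 4.02 in the pituicyte clusters a, b and c. It was 5.55 in the VLMC cluster, 4.41 in the epithelial cluster and 0.64 in vascular endothelia. The VLMC value rests on 6 and 3 UMIs in the pools. *Rpl36al*, 87.7% identical to *Rpl36a*, had 0.284 to 0.582 UMIs per UMI of *Rpl36a* in the large types, with the ranges of the types overlapping except for IL cells (0.582 and 0.479) against pituicytes (0.325 and 0.384) and T-cell like cells (0.411 and 0.284). *Rpl6l*, annotated as a processed pseudogene, had 0.065 to 0.148 UMIs per UMI of *Rpl6*, without an order among types.

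Other genes of the translation machinery were taken from lists by role. *Fau* and *Gnb2l1* (also called *Rack1*), which code for ribosomal proteins under other symbols, were both higher in T-cell like cells and both lower in pituicytes and in IL cells. *Gnb2l1* had 1202 and 1203 CPM in T-cell like cells, 496 and 778 in macrophage/microglia, 331 and 288 in pituicytes and 295 and 349 in IL cells (1.59 ± 0.26). Of 16 elongation factors and other genes known for a TOP motif, 10 were higher in T-cell like cells and none was lower, with a median log2 difference of 0.94, beside 11.9% of all genes called higher. *Eef1a1*, the factor that brings aminoacyl-tRNA to the ribosome, had 5334 and 5294 CPM there and between 2050 and 3698 CPM in the other large types (0.97 ± 0.19). Of these genes, 6 were lower in pituicytes and 6 in IL cells, beside 7.99% and 13.4% of all genes. Of 43 tested ribosomal proteins of the mitochondria, which are built into a separate ribosome, none was called in T-cell like cells in either direction (median 0.16). At an unadjusted p under 0.05, 2 of them were higher and none was lower there, and DESeq2 called none. In pituicytes 5 were higher with edgeR, beside 25.2% of all genes, and none with DESeq2. Of 11 tested genes of ribosome biogenesis, nucleolin (*Ncl*) was called higher in T-cell like cells (0.92 ± 0.34, adjusted p = 0.0485), a call that DESeq2 did not make. The median log2 difference of these 11 genes in T-cell like cells was 0.86, beside -0.41 over all tested genes. At an unadjusted p under 0.05, 5 of them were higher and none was lower there. Of 6 tested genes of the mTOR and S6 kinase branch, none was called there by either tool or at an unadjusted p under 0.05, and differences in such low counts may not be detectable at this depth.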

How the data were processed

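Both libraries were droplet 3′ libraries of unsorted NH cells. The deposited counts are UMI counts per gene and barcode, made by the authors with Cell Ranger on mm10. The study forced 1500 cells per pool. The deposited counts of pool 2 list 1500 barcodes, but those of pool 1 list 737280, of which the 1500 with most UMIs were taken. The submitters' processing notes name Cell Ranger 1.2.1, 2.0.0 and 2.1, STAR 2.5.1b and Seurat 2.3. The deposited cluster means hold other values, in which the authors brought the UMIs of each cell to a sum of 10000 and took the mean over the cells of both pools. Cells with 1000 to 10000 UMIs, 400 to 5000 genes and at most 25% mitochondrial UMIs were kept, and each was placed in the cluster whose deposited means it helped to rebuild. The lowest weight of a cell in its cluster was 0.974, and 349 of 15025 means differed by over 0.05, among them those of 4 members. Doublets were not removed, and Scrublet marked 5 cells. Kept cells held 1001 to 9851 UMIs, and intervals and floors cover counting error only.

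Counts were summed per type and pool. The 8 sums of the 4 large types were tested with edgeR 4.0.16 in R 4.3.3 (quasi-likelihood F test, total UMIs as library size, filterByExpr with a minimum count of 10 and a total of 15), and again with the members' UMIs as library size. The SE is the absolute log2 difference over the square root of F. Python 3.11.15, scipy 1.17.1, scanpy 1.11.5 and DESeq2 1.42.0 were also used, and the fit was tested on simulated counts. Since 1 set of 5 mice gave every cell type of a pool, types are paired by pool. The main fits held no term for the pool and so did not use this pairing, which the alternative with the pool as a block did. Deviations of types of the same pool correlated between -0.016 and 0.167 over 4157 genes. Named genes were the 3 highest and 3 lowest detected members, the 3 largest and 3 smallest called differences of each contrast and fit with 1 direction in both pools, and a list chosen by role. Some genes that meet these rules are not reported here, and counts include them. The members and lists were chosen with earlier results of these data known. Alternatives changed the normalization, the tool, the filter, the block, the types in the fit, the clusters, the mitochondrial limit, free RNA and the replicates. The profile of free RNA came from the low-count barcodes of pool 1 alone and was used for both pools. For the fit on the members' UMIs, the tool, the filter and the mitochondrial limit were not changed. Leaving out T-cell like cells, leaving out each sum, and adding the copies to their parent genes were chosen after seeing the data.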

Additional observations from a re-analysis of the deposited data

Results flagged for a closer look

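Ribosomal protein genes also gave UMIs in barcodes and rows outside the comparisons. In pool 1, 157608 barcodes with 1 to 50 UMIs had 12.9% of their UMIs from members, beside 50.6% from the mitochondrial genome. Barcodes that met the other limits but exceeded the mitochondrial one had 6.35% in pool 1 (56 barcodes) and 9.91% in pool 2 (27 barcodes), below the 14.4% of kept cells. The 16 rows of copies named -ps, which were left out by the rule, held 7524 UMIs. *Rps12-ps3* had 604 UMIs beside 106 of *Rps12*, *Rpl9-ps6* had 731 beside 255 of *Rpl9*, and *Rpl23a-ps3* had 1804 beside 1067 of *Rpl23a*, so that the levels of these parent genes are uncertain. The split of reads between a copy and its parent was not tested.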

How the results depend on the processing

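The call of T-cell like cells as higher held for between 59 and 80 members when 1 sum was left out, with medians from 1.26 to 1.39. Leaving out sums in turn gave 17 to 50 lower members in pituicytes, 32 to 70 lower and 0 to 1 higher in IL cells, and 0 to 11 higher and 1 to 4 lower in macrophage/microglia. Relative to the members' sum it gave 3 to 9 higher and 1 to 4 lower in pituicytes, 2 to 8 and 2 to 8 in IL cells, 1 to 5 and 1 to 7 in macrophage/microglia, and 3 to 11 and 2 to 12 in T-cell like cells. The shares in single pools ran from 11.4% to 14.7% in pituicytes, 11.1% to 11.96% in IL cells, 16.6% to 19.9% in macrophage/microglia and 33.4% to 33.9% in T-cell like cells, and median log2 differences within single pools from -0.70 to -0.48, -0.82 to -0.77, 0.063 to 0.14 and 1.22 to 1.42. In refitted sums the pituicyte median was -0.38 without their pool 1, -0.79 without their pool 2, -0.17 without T-cell like cells and -0.044 with the 10% limit, and that of macrophage/microglia was -0.036 without their pool 2, -0.11 with the 10% limit and 0.60 without T-cell like cells. With the 10% mitochondrial limit the share was 19.1% in pituicytes and 12.3% in IL cells, and 0 members were lower in pituicytes, 0 higher in IL cells and 0 higher in macrophage/microglia. Without mitochondrial genes in the total the share was 12.8% in IL cells and 35.1% in T-cell like cells, without *Pomc* 12.9% in IL cells, and with free RNA subtracted 34.3% in T-cell like cells. With no filter 0 members were higher in IL cells. With TMM 19 members were higher and 1 lower in macrophage/microglia (median 0.32). With TMM computed without members and mitochondrial genes there were 17 and 1 (median 0.32), and with DESeq2 11 and 1. Of all tested genes, 19.9%, 19.8% and 16.2% were called higher there. That share was 20.1% with all 7 types and 17.5% with clusters made without members. TMM moved the median of all genes from 0.33 to 0.20 in pituicytes and from -0.11 to 0.10 in macrophage/microglia. With all 7 types 6 were lower in pituicytes, 25 lower in IL cells, and 13 higher and 0 lower in macrophage/microglia, and relative to the sum there were 1 higher and 0 lower in pituicytes, 3 and 3 in IL cells, 2 higher in macrophage/microglia and 6 lower in T-cell like cells. With T-cell like cells left out 1 was lower in pituicytes, 20 lower in IL cells, and 45 higher and 1 lower in macrophage/microglia, and relative to the sum 3 higher and 1 lower in pituicytes, 3 and 4 in IL cells, and 7 and 9 in macrophage/microglia. Clusters made without members gave 12 higher in macrophage/microglia and 9 lower relative to the sum in pituicytes, whose sums then held all 11 VLMC. The pool as a replicate block gave 9 higher in macrophage/microglia, and relative to the sum 12 and 10 in pituicytes, 13 and 11 in IL cells, 8 and 6 in macrophage/microglia and 15 higher in T-cell like cells; no other count moved by over 1.5 times under the block. Signs turned for *Rpl5* (0.18) and *Rps25* (0.089) in pituicytes with the 10% limit and for *Rps27rt* (0.093) in pituicytes without T-cell like cells, none past the test. The cause was not tested for any of these. Of 99 results for named genes, 35 kept their call in every alternative. The T-cell like sums, with 54928 and 29088 UMIs, are the smallest of the 4 large types and limit the precision there.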
